A study of Mus musculus with 8 samples.

Results

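Internal exons are the short stretches of a gene that lie between introns and are joined in the mature messenger RNA. In GENCODE vM1, the protein_coding genes of mouse chromosomes 1 to 19 (build mm9, NCBIM37) hold 157251 internal exons when each gene is represented by its transcript of longest span. The exons described here are the 40528 of these, in 10618 genes, that are 100 to 300 bp long and have an intron of at least 1 kb on both sides. The rule that selects them uses annotation only, and it was set with earlier results of these data known. Each exon was set against the intron from 300 to 800 bp away on either side.

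The chromatin came from subcutaneous isografts of Lewis lung carcinoma (LLC) cells in female C57BL/6J mice, purchased at 6 to 8 weeks of age. LLC-NR cells are sensitive to VEGF-Trap, a soluble decoy receptor that binds VEGF, and LLC-R is a resistant subline obtained by repeated selection under VEGF-Trap in mice. Nuclei of cross-linked tumor tissue were digested with micrococcal nuclease, and the released nucleosomes were precipitated with antibodies against H3K4me3, H3K9ac, H3K27me3 or H3K36me3 before sequencing. Each mark was sequenced once in each line, which makes 8 libraries with no replicates and no input library, so differences between the lines have no replicate check and no p-value is given. How many tumors went into each library, and treatment of the isografts themselves, are not given in the sources used here, and an isograft holds host vessels, leukocytes and fibroblasts beside the carcinoma cells. The deposited data are positions of peaks, all of the same width, that of the DNA wrapped around a nucleosome core, with no height. The libraries hold 5660458 to 9101721 peaks and cover 33.2% to 53% of the known bases of the autosomes. A peak was counted where its midpoint lies, and density is given as midpoints per kb. Since peaks of a library do not overlap, the density over a long stretch cannot pass 6.8 per kb, so a difference in signal appears compressed. A short exon needs only 1 base to hold a midpoint, and the value of a gene with few exons can pass this level, up to 12.7 per kb for H3K27me3 in LLC-R. A lower density may mean fewer tumor cells with a nucleosome at that place or a weaker signal in each, and these cannot be told apart.

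Splicing of short exons between long introns depends on recognition of the exon as a unit, through the polypyrimidine tract and AG at its 5′ end (the acceptor) and the GT of the next intron at its 3′ end (the donor). A nucleosome wraps about the length of DNA of a typical internal exon, and nucleosomes are known to be enriched on exons in many animals. H3K36me3 is laid down during transcription elongation and marks the bodies of active genes, H3K4me3 and H3K9ac mark active promoters, and H3K27me3 is laid down by Polycomb repressive complex 2 at silent genes.

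The sequence of an exon and its splice sites shows what the peaks were placed on. In the sequences below, read from NCBIM37 in the sense of the transcript, the exon is in capitals, the 50 bases before it and the 20 bases after it are in lower case, and the intron bases next to the capitals are the splice sites. They are exons, each the nearest in its gene to the width of a peak, of 6 genes of signaling and angiogenesis: Smad3, a transcription factor of TGF-β signaling, Ptk2, the focal adhesion kinase, Nfkb1, an NF-κB subunit, Mapk9, a JNK kinase, and Vegfa and Vegfc, which encode VEGF ligands.
Smad3 exon 8 (chr9:63500268-63500482, minus strand): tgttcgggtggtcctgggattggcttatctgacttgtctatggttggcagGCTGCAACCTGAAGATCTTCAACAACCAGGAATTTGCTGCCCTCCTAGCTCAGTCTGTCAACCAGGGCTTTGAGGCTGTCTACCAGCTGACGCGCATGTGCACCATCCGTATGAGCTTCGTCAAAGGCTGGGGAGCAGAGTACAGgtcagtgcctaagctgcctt
Ptk2 exon 25 (chr15:73062265-73062472, minus strand): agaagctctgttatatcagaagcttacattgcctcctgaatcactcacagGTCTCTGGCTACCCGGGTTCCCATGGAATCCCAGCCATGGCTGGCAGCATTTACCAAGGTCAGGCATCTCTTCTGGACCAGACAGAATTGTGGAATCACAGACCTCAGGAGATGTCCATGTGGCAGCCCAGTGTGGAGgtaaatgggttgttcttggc
Nfkb1 exon 7 (chr3:135289539-135289757, minus strand): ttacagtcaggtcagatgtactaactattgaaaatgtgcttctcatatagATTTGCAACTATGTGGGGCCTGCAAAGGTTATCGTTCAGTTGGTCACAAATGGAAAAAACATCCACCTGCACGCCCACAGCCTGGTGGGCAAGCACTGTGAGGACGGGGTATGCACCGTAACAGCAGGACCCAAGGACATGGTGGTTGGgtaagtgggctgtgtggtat
Mapk9 exon 5 (chr11:49682624-49682832, plus strand): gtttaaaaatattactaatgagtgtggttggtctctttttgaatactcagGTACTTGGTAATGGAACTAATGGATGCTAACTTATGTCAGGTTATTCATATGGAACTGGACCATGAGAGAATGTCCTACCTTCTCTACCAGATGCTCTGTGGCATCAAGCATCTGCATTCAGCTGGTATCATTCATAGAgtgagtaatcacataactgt
Vegfa exon 6 (chr17:46157920-46158121, minus strand): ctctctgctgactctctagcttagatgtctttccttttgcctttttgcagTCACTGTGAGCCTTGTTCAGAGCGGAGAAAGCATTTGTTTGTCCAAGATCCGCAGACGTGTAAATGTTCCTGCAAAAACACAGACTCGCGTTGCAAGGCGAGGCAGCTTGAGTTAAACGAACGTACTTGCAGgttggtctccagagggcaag
Vegfc exon 4 (chr8:55254329-55254550, plus strand): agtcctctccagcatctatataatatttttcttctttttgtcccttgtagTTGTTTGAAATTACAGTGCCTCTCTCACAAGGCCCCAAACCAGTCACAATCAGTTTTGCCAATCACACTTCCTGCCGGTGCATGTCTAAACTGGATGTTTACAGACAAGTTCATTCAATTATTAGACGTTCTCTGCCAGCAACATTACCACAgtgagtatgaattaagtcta

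The intron end before each exon reads ag and the intron start after it reads gt. Of the 20 bases before the AG, C or T make up 90% in Vegfa and Vegfc. They make up 70% in Ptk2 and Mapk9, 60% in Smad3 and 55% in Nfkb1, so not every exon has a clear run of c and t there. All of these exons are coding, and all of their 32-mers occur once in the genome.

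Across the 40528 exons the same features held. The acceptor was AG in 99.8% of the exons and the donor GT in 98.9%, with GC in 0.824%. The donor read GTAAGT in 15.8% and GTGAGT in 13.3%, and C or T made up 74.8% ± 10.4 (SD over exons) of the 20 bases before the AG. The exons had a median length equal to the width of a peak, with quartiles at 122 and 180 bp, and 14461 of them (35.7%) were 130 to 170 bp long. Most were coding over their whole length (92.8%), 37.9% had a length that is a multiple of 3, and 4.55% were cassette exons, which at least 1 annotated protein_coding transcript of the gene skips. Another 34.8% were spanned by only 1 such transcript, so skipping could not be seen for them. Exons were richer in G+C than the introns around them, with 49.4% ± 6.87 against 42.7% ± 5.28, and 85.2% of exons exceeded their own intron windows. CpG dinucleotides were also denser, at 24.9 against 8.79 per kb. A gene contributed 3 exons at the median. The genes with the most were Syne1 with 66 (nesprin-1, a giant protein of the nuclear envelope), Lrp1b with 59 (an LDL receptor family member), Dnahc8 with 55 (an axonemal dynein heavy chain), Syne2 with 49 (nesprin-2) and Ryr2 with 48 (the cardiac ryanodine receptor).

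Midpoints of all 4 marks were denser in exons than in the flanking introns, in both lines. For H3K4me3 in LLC-NR, 19151 midpoints in exons gave 3.03 per kb and 104494 in the intron windows gave 2.58 per kb, a ratio of 1.18 (95% interval 1.16 to 1.19). H3K4me3 in LLC-R gave 3.04 against 2.61 per kb, a ratio of 1.16 (1.15 to 1.18). H3K9ac in LLC-NR gave 4.31 against 3.97 per kb, and its ratio of 1.09 (1.07 to 1.10) was the lowest of the 8 libraries. H3K9ac in LLC-R gave 4.20 against 3.61 per kb, a ratio of 1.16 (1.15 to 1.18). H3K27me3 gave 3.36 against 2.87 per kb in LLC-NR, with a ratio of 1.17 (1.15 to 1.19), and 4.30 against 3.83 per kb in LLC-R, with a ratio of 1.12 (1.11 to 1.14). H3K36me3 gave 3.77 against 3.36 per kb in LLC-NR, with a ratio of 1.12 (1.11 to 1.14), and 4.49 against 4.0 per kb in LLC-R, with the same ratio of 1.12 (1.11 to 1.14). The intervals are exact binomial intervals that cover counting error only. The ratio exceeded 1 on each of the 19 chromosomes in each library, in 152 of 152 cases, and the plot of densities and ratios shows each chromosome.

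**Figure D1:**
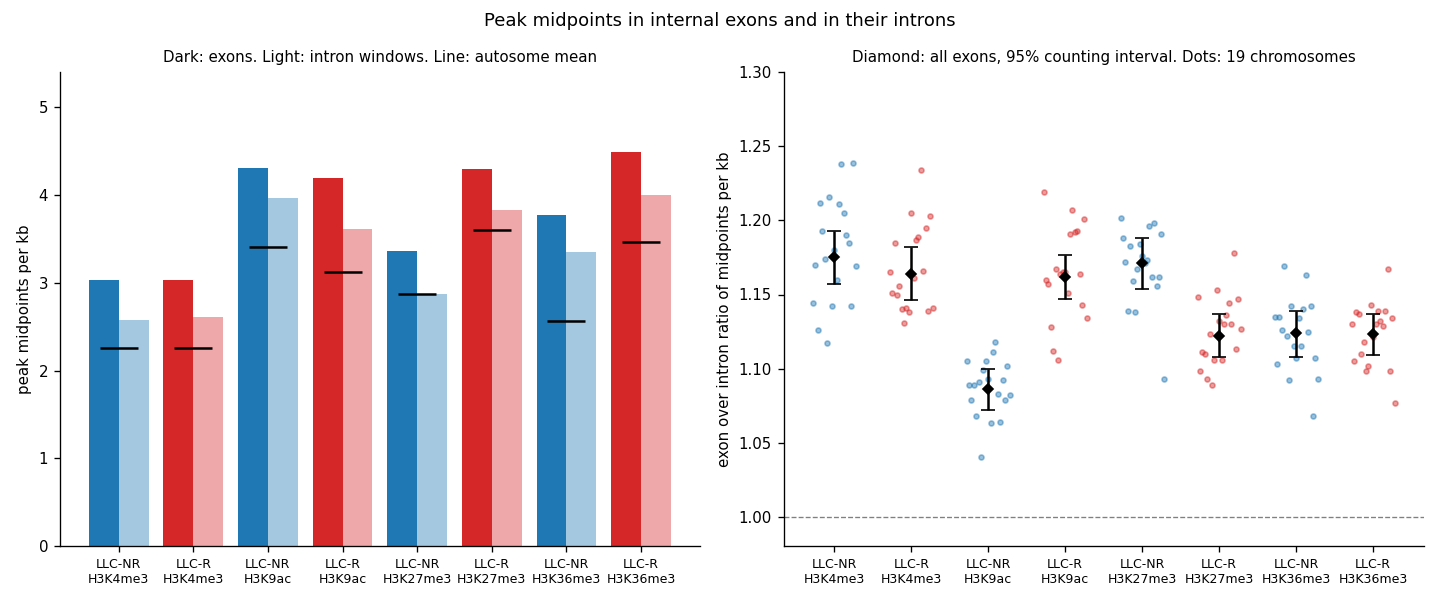
Left, midpoints per kb in exons (dark bars), in the intron windows (light bars) and over the autosomes (black lines) for the 8 libraries, LLC-NR in blue and LLC-R in red. Right, the exon over intron ratio with its 95% counting interval (diamonds) and the ratio on each of 19 chromosomes (dots), all of which lie above 1, from 1.04 for H3K9ac in LLC-NR to 1.24 for H3K4me3 in LLC-NR.

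Both introns around an exon were alike. In H3K36me3 of LLC-NR, for example, the upstream windows held 3.34 and the downstream windows 3.37 midpoints per kb. The introns themselves were not at the mean of the genome for every mark. H3K36me3 in LLC-NR stood at 1.31 times the autosome mean in introns and at 1.47 times in exons, the highest of the 8 libraries. H3K27me3 in LLC-NR stood at 0.998 times the autosome mean in introns and 1.17 times in exons, the lowest.

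The lines did not differ alike in the 4 marks. The ratio in LLC-R over that in LLC-NR was 0.991 for H3K4me3 and 0.9995 for H3K36me3, where the counting intervals overlapped. It was 1.07 for H3K9ac, with LLC-R higher on 19 of 19 chromosomes, and 0.958 for H3K27me3, with LLC-R higher on 2 of 19. For H3K9ac the autosome mean went from 3.41 midpoints per kb in LLC-NR to 3.13 in LLC-R, and for H3K27me3 from 2.88 to 3.61, so in these 2 marks the library with more peaks had the lower ratio. For H3K36me3, with 2.56 and 3.47 per kb, the ratios were alike. This changed when exons and windows were weighted to equal G+C content, which gave 1.107 (LLC-NR) and 1.056 (LLC-R) for H3K36me3, or 0.954 for LLC-R over LLC-NR. With the same weighting the line ratio of H3K4me3 was 0.924, that of H3K9ac 1.03 and that of H3K27me3 0.975. With this weighting and only regions where at least 95% of 32-mers occur once in the genome, it was 0.961 for H3K4me3 and 1.03 for H3K9ac. For H3K27me3 it was then 0.982, the closest to 1 of the 4 marks, and for H3K36me3 0.969. The part of the number of peaks in these differences was not tested, and chromosomes of 1 library are not replicates.

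A majority of exons held a midpoint in 6 of the 8 libraries. For H3K4me3 these were 46.4% of exons in LLC-NR, where 36.8% of windows of exon length cut from the same introns held a midpoint, and 46.5% in LLC-R, where 37.3% of windows did. For H3K9ac they were 65.2% against 56.1% of windows in LLC-NR and 63.7% against 51.3% in LLC-R. For H3K27me3 they were 51.3% against 40.8% in LLC-NR and 65.1% against 54.3% in LLC-R, and for H3K36me3 57.4% against 47.7% in LLC-NR and 67.9% against 56.7% in LLC-R. No exon held more than 2 midpoints of a library, and 0.809% to 2.21% of exons held 2. In the mean, an exon had a midpoint in 4.64 of the 8 libraries and a window in 3.81. All 8 libraries had a midpoint in 2916 exons (7.20%), against 4.06% of windows. None of them had a midpoint in 1348 exons (3.33%), against 7.64% of windows. In all, 594 exons have no 32-mer that occurs once in the genome. Of these, 286 were among the 1348, and the rest held a midpoint in at least 1 library. Exons with all 8 had a median length of 184 bp and those with none 124 bp.

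Inside the exon, the midpoints gathered at the centre. With bins of 10 bp smoothed over 3 bins, density was highest 5 bp from the exon centre in all 8 libraries, at 1.26 times (H3K9ac in LLC-NR) to 1.38 times (H3K9ac in LLC-R) the level more than 300 bp away. The lowest density lay 105 to 115 bp upstream of the centre, in the intron just before the acceptor, at 0.762 times (H3K36me3 in LLC-R) to 0.830 times (H3K27me3 in LLC-R) that level. Upstream of this dip, from 185 to 215 bp before the centre, all 8 libraries passed the far level again. H3K9ac in LLC-NR, for example, had 4.50 per kb at 185 bp, where the far level was 3.98. Midpoints of the same library lie at least a peak width apart, so a midpoint at the exon centre excludes others from the place of the dip. The part of this spacing in the dip and in the rise beyond it was not tested. The exons of 130 to 170 bp showed the same form with a higher summit, 1.32 to 1.47 times the far level.

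**Figure D2:**
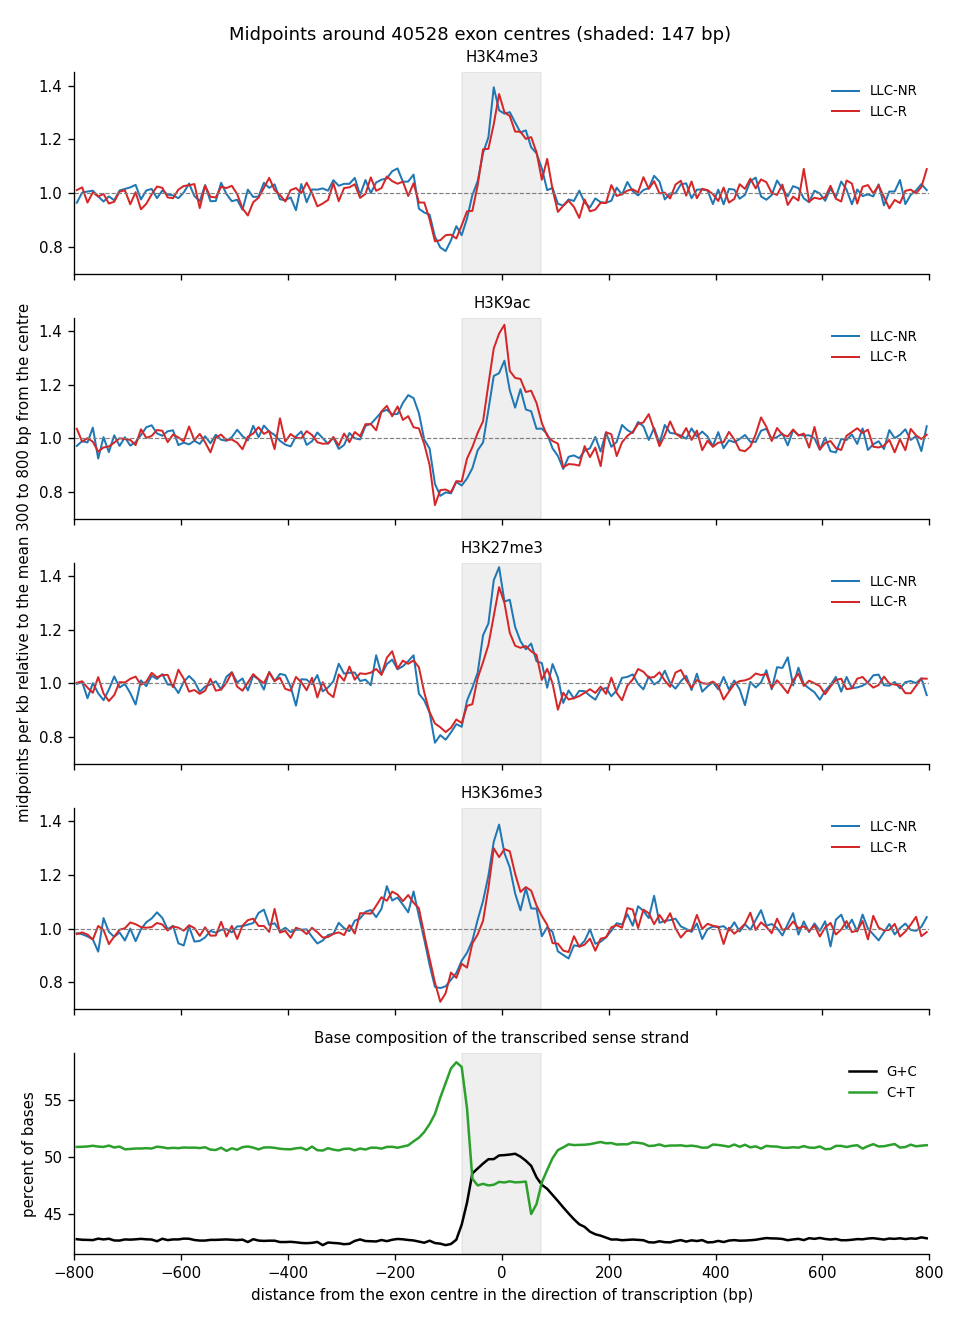
Upper 4 panels, midpoints per kb in bins of 10 bp from 800 bp before to 800 bp after the centre of the 40528 exons, divided by the mean more than 300 bp from the centre, for LLC-NR (blue) and LLC-R (red); the shaded band is as wide as a peak. Lowest panel, percent G+C and C+T of the bases along the same span, in the sense of the transcript. Every mark has its summit at the centre and its smoothed dip 105 to 115 bp upstream, beside the maximum of C+T at 85 bp upstream.

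The dip was deeper on the acceptor side. From 10 to 60 bp before the acceptor, the density relative to the intron windows was 0.803 (95% interval 0.779 to 0.828) for H3K4me3 in LLC-NR, and 0.816 for the LLC-R library. It was 0.777 and 0.771 for H3K9ac, 0.797 and 0.812 for H3K27me3, and 0.763 and 0.762 for H3K36me3, in LLC-NR and LLC-R. From 10 to 60 bp after the donor the values were also below 1, but closer to it. They were 0.970 and 0.963 for H3K4me3, 0.941 and 0.943 for H3K9ac, 0.980 and 0.952 for H3K27me3, and 0.924 and 0.920 for H3K36me3. The 95% interval was 0.8985 to 0.9413 for H3K36me3 in LLC-R, and 0.9542 to 1.006 for H3K27me3 in LLC-NR. These zones were set after the profiles had been seen. The strip before the acceptor overlaps the polypyrimidine tract in part. C+T reached 58.3% in the bin 85 bp before the centre against 50.9% in the introns 795 bp away. G+C there was 42.7%, like that of the introns. On the donor side G+C was higher, at 47.2% in the bin 85 bp after the centre. At 105 bp it was 42.2% before the centre and 46.1% after it. The part of G+C in the difference between the acceptor and donor sides was not tested. Restricting the zones to exons whose surroundings map uniquely left the values before the acceptor at 0.768 to 0.830. Exons with over 80% C+T in the tract did not have a deeper dip in every library than those with under 70%: it was 0.744 against 0.781 for H3K4me3 in LLC-NR and 0.811 against 0.782 in LLC-R. They did have lower exon to intron ratios in all 8 libraries, such as 1.09 against 1.15 for H3K36me3 in LLC-NR.

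Where midpoints of the libraries coincide can be seen in single exons. Of the 22 exons picked by length in named genes, 4 had a midpoint in all 8 libraries. Over all 40528 exons the share was 7.20%, and 22 exons are too few to set against it. In exon 14 of Flt1, which encodes the VEGF receptor VEGFR-1, the 8 midpoints lay between bases 42 and 49 of the exon. In exon 12 of Fn1, the gene of fibronectin, they lay between bases 70 and 83 of 144. In exon 7 of Nfkb1 they were spread from base 38 to 112 of 149 and in exon 25 of Ptk2 from 31 to 122 of 138. The 2 exons with the closest midpoints, chosen after these values were seen, have the sequences below, in the same notation.
Flt1 exon 14 (chr5:148445933-148446149, minus strand): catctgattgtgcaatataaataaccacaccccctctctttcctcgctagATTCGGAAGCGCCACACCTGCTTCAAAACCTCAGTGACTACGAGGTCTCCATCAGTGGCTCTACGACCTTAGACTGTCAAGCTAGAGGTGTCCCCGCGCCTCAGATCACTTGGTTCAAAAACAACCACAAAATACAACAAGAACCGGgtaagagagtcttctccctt
Fn1 exon 12 (chr1:71683806-71684019, minus strand): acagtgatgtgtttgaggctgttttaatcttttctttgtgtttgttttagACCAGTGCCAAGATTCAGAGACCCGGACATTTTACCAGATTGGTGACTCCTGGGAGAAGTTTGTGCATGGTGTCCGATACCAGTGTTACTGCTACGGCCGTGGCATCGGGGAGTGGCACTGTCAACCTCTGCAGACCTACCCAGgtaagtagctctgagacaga

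Midpoints of all 8 libraries also lay close together in introns. Of the 40528 exons, 2192 had exactly 1 midpoint in each of the 8 libraries, and in 152 of these (6.93%) all 8 lay within 20 bp. Among windows of exon length in the introns, 7840 of 236422 had 1 midpoint in each, and in 838 of these (10.7%) they lay within 20 bp. Per 10000 regions, these were 37.5 exons and 35.4 windows. The median spread was 86 bp in exons and 76 bp in windows. Between the lines, the comparison depended on the measure. Where each line had 1 midpoint of a mark in an exon of 130 to 170 bp, the lines were within 10 bp of each other in 28.4% (H3K4me3) to 40.7% (H3K36me3) of exons and in 29.7% to 42.4% of windows, lower in exons for all 4 marks. When each midpoint of LLC-NR was instead set against the nearest one of LLC-R, inside the exon or not, the shares within 10 bp were 14.9% in exons and 14.5% in windows for H3K4me3, and 31.69% and 31.02% for H3K36me3. For H3K9ac and H3K27me3 these shares differed by -0.11 and -0.04 points. The median distance to the nearest midpoint was shorter in exons for all 4 marks. It was 70 against 76 bp for H3K4me3, 40 against 43 bp for H3K9ac, 40 against 41 bp for H3K27me3 and 29 against 32 bp for H3K36me3. Midpoints of LLC-R were also denser in exons, and a higher density by itself brings the nearest midpoint closer. The part of density in the shorter distances was not tested.

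The other exons shown above had fewer. Mapk9 exon 5 had a midpoint in 5 libraries and Vegfc exon 4 in 6. Smad3 exon 8 had a midpoint in 3, namely H3K9ac and H3K27me3 of LLC-R and H3K36me3 of LLC-NR. Vegfa exon 6, a cassette exon, had a midpoint in 2, H3K9ac and H3K27me3 of LLC-R, and none in LLC-NR. A single exon has room for about 1 midpoint, so presence or absence in 1 library carries little precision.

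How the exon to intron ratio went with G+C content depended on the windows used. Against their own intron windows, exons under 45% G+C had 1.132 for H3K4me3 in LLC-R, and those of 55% or more had 1.193. In LLC-NR, H3K4me3 and H3K27me3 were lowest in the class between these, at 1.151 each. The ratio fell with G+C for H3K9ac and H3K36me3 in both lines and for H3K27me3 in LLC-R. For H3K36me3 in LLC-NR it went from 1.171 to 1.034. When exons were compared with intron windows of the same length and of the same 5-point bin of G+C, the ratio fell from 1.10 to 1.31 over the 8 libraries at 30% to 35% G+C to 0.952 to 1.04 at 55% to 60%. It was 1.34 to 1.54 at 65% to 70%, a bin of 227 exons and 346 windows. H3K36me3 in LLC-NR went from 1.27 (1.14 to 1.40) in the lowest bin to 0.994 at 55% to 60%. H3K4me3 in LLC-R was below 1 in 2 bins, with 0.965 at 50% to 55% and 0.952 at 55% to 60%. From the bin at 35% to 40% G+C to that at 55% to 60%, the density in introns rose in all 8 libraries, while that in exons rose in 3 and fell in 5. For H3K4me3 in LLC-R, introns went from 2.34 to 3.19 per kb and exons from 2.82 to 3.04. For H3K36me3 in LLC-NR, introns went only from 3.31 to 3.38 per kb and exons from 4.03 down to 3.36. Weighted to the G+C content of the exons, the 8 ratios were 1.03 to 1.12, lower than the 1.09 to 1.18 before weighting and all above 1. The share of unique sequence differed as well, since 92.4% of exons and 83.1% of windows had at least 95% of 32-mers that occur once in the genome. With only such exons and windows and the same weighting, the ratios were 1.01 to 1.09, for which no interval was computed. In the same unique sequence, 7 of the 8 libraries were below 1 at 55% to 60% G+C, with ratios from 0.946 (0.910 to 0.983) for H3K9ac in LLC-NR to 1.01 for H3K27me3 in LLC-NR. H3K9ac in LLC-NR was also below 1 at 50% to 55%, with 0.968 (0.942 to 0.995), and H3K36me3 in LLC-R at 60% to 65%, with 0.908 (0.837 to 0.984). At 65% to 70%, where 214 exons and 181 windows were left, the ratios were 0.927 to 1.02.

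**Figure D3:**
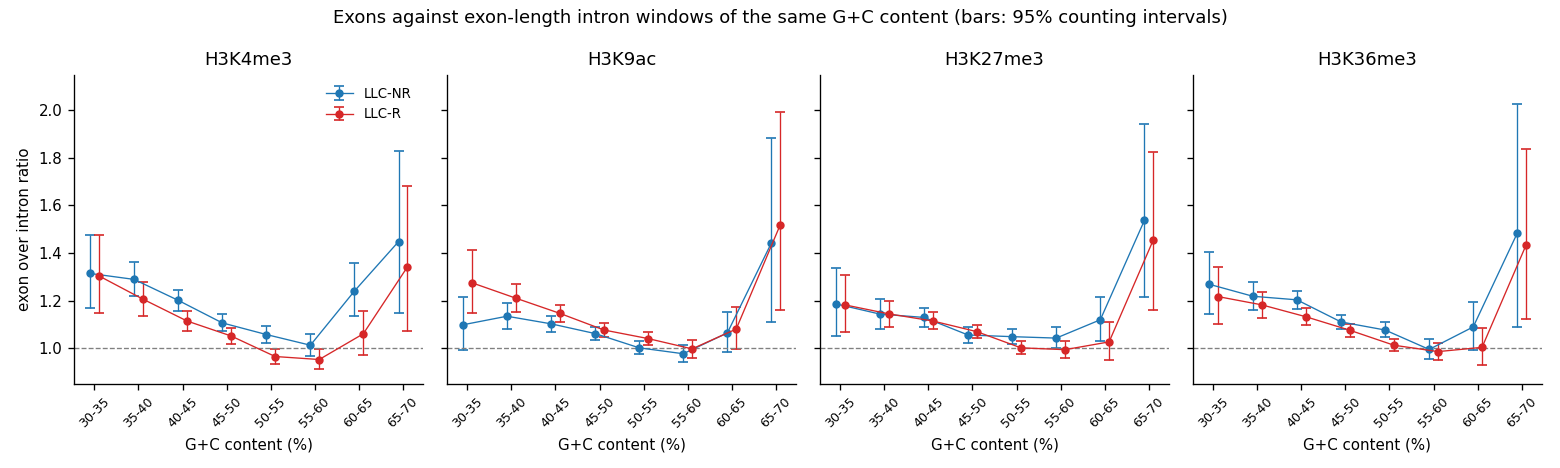
Ratio of midpoints per kb in exons over exon-length intron windows of the same G+C content, in 5-point bins, for each mark in LLC-NR (blue) and LLC-R (red), with 95% counting intervals. The ratio is above 1 in the bins under 50% G+C in every library, reaches 0.952 to 1.04 at 55% to 60%, and has wide intervals at 65% to 70%, where there are 227 exons.

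Shorter exons stood out more from their introns than longer ones. Exons under 130 bp (13472) had ratios of 1.15 (H3K9ac in LLC-NR) to 1.25 (H3K4me3 in LLC-NR), and those over 220 bp (3771) had ratios of 1.0 (H3K9ac in LLC-NR) to 1.13 (H3K4me3 in LLC-R). For H3K36me3 in LLC-NR the ratio went from 1.22 (1.19 to 1.25) through 1.15 and 1.08 to 1.02 (0.981 to 1.06) over the 4 length classes. G+C content rose over the same classes, from 48.3% to 51.3%. A short exon holds the centre of the profile and little else, and the share of length, G+C and window size in this trend was not tested.

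**Figure D4:**
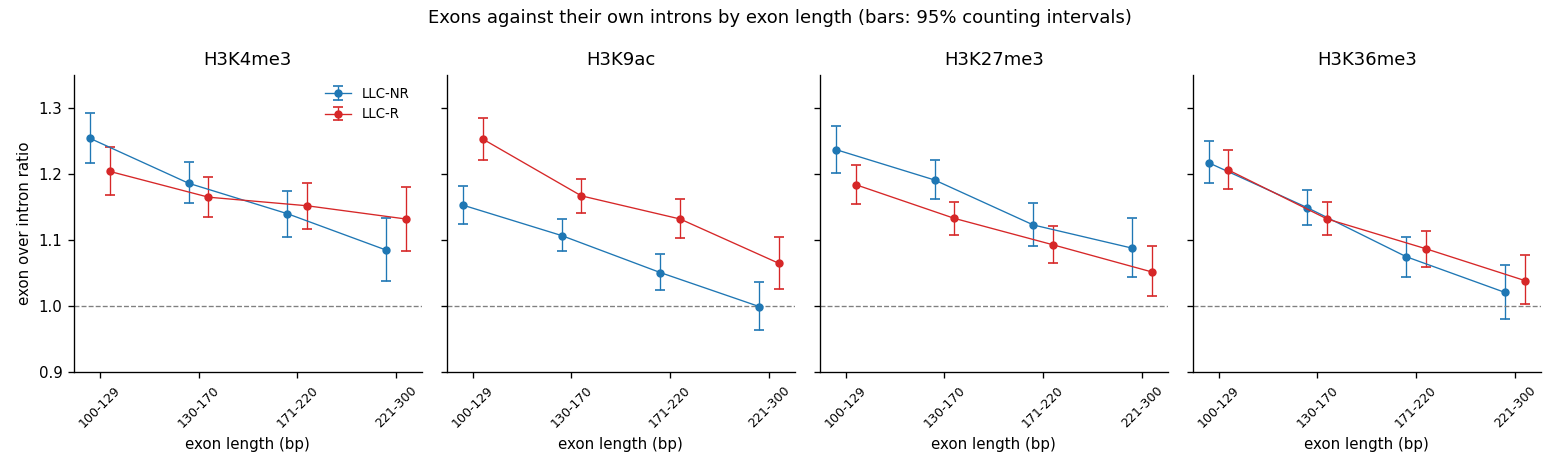
Ratio of midpoints per kb in exons over their own intron windows in 4 classes of exon length, for each mark in LLC-NR (blue) and LLC-R (red), with 95% counting intervals. In each of the 8 libraries the ratio is highest under 130 bp and lowest over 220 bp.

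Other annotation of the exons went with smaller differences. Cassette exons (1844) and constitutive exons (22628) had ratios of 1.09 and 1.13 for H3K36me3 in LLC-NR and of 1.12 and 1.13 in LLC-R. Exons whose length is a multiple of 3 had 1.10 against 1.14 for the others in H3K36me3 of LLC-NR, and 1.12 against 1.13 in LLC-R. A donor of GTNAGT went with 1.16 against 1.18 for H3K4me3 in LLC-NR and with 1.17 against 1.16 in LLC-R. Untranslated exons (837) had ratios of 1.13 to 1.23 and coding exons 1.08 to 1.17. Only for H3K4me3 in LLC-R were untranslated exons lower, at 1.152 (1.028 to 1.287) against 1.166 (1.148 to 1.185). The counting intervals overlapped in each of these comparisons.

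The level of H3K36me3 and H3K9ac in exons was higher in genes with more H3K4me3 at the promoter, while H3K27me3 was lower there in LLC-NR and level in LLC-R. Genes were grouped by the number of H3K4me3 midpoints of the same line between 1 kb before and 0.5 kb past the TSS, with a mean over promoters of 5.50 (LLC-NR) and 5.11 (LLC-R), so that genes above the mean have 6 or more. In LLC-NR, H3K36me3 was 4.18 per kb in the 24004 exons of genes above the mean and 3.19 in the 16524 exons of the others, a ratio of 1.31, while H3K27me3 was 3.17 and 3.64 per kb. In LLC-R, H3K36me3 was 4.73 per kb in 18729 exons and 4.29 in 21799 exons, a ratio of 1.10, and H3K27me3 was 4.30 per kb in both groups. H3K9ac was 4.49 against 4.06 per kb in LLC-NR and 4.39 against 4.03 in the LLC-R library. Exons of genes with 2 or fewer midpoints at the promoter had the lowest H3K36me3, 2.44 per kb (LLC-NR) and 3.37 per kb (LLC-R), but were also lowest in the other 3 marks, H3K27me3 included. The introns of the same genes moved with the exons, and the exon to intron ratio for H3K36me3 was 1.14 above and 1.10 below the mean in LLC-NR. For LLC-R these ratios were 1.14 and 1.11. How far the level in genes with few H3K4me3 midpoints rests on sequence that is not unique was not tested. For H3K27me3 and H3K36me3 the LLC-R library holds more peaks than the LLC-NR library, and the study lists more uniquely mapped reads for it. The part of this depth in the differences between the lines was not tested.

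**Figure D5:**
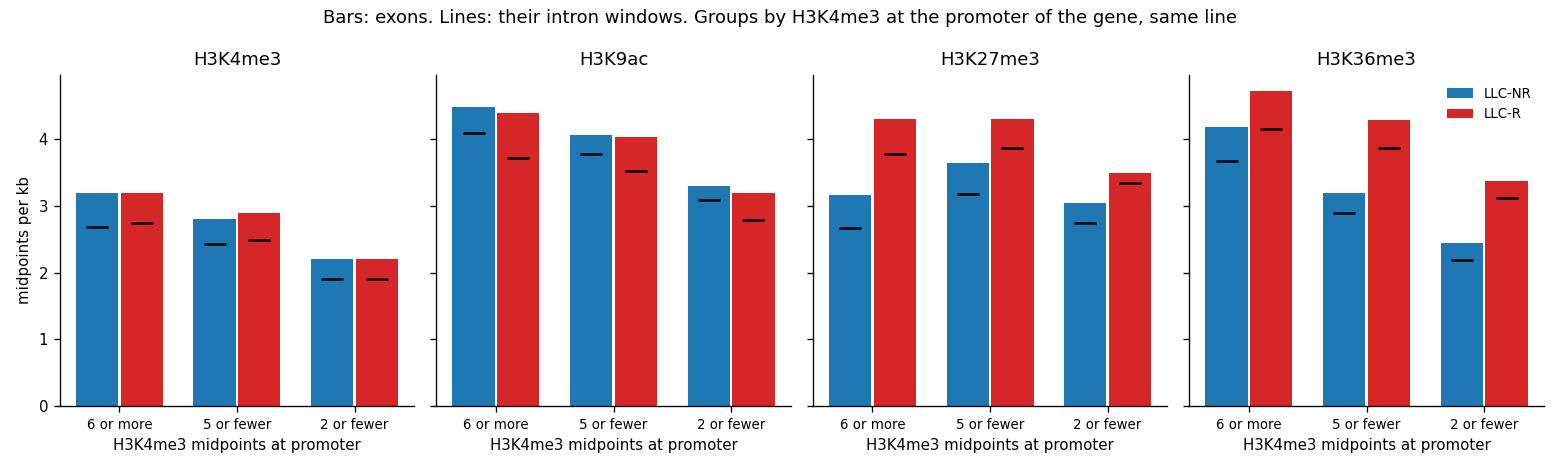
Midpoints per kb in exons (bars) and in their intron windows (black lines) for the 4 marks in LLC-NR (blue) and LLC-R (red), by the number of H3K4me3 midpoints at the promoter of the gene in the same line; the group of 2 or fewer is contained in that of 5 or fewer. H3K36me3 falls from 4.18 to 2.44 per kb in LLC-NR over the groups, and H3K27me3 in LLC-NR is highest in the middle group at 3.64.

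Along the gene, H3K4me3 in LLC-NR was highest in the 3058 exons under 5 kb from the TSS of their transcript, with 3.42 per kb in exons and 3.04 in introns, and fell to 2.93 per kb in exons over 50 kb away. In LLC-R the same groups had 3.12 and 3.04 per kb. H3K36me3 in LLC-NR was lowest near the TSS, with 3.44 per kb under 5 kb, rose to 3.95 at 20 to 50 kb and was 3.69 over 50 kb. In LLC-R the same groups had 4.24, 4.55 and 4.54 per kb. By position along the transcript, the last of 5 equal parts of the span was at 0.956 (LLC-NR) and 0.989 (LLC-R) times the first. This reversed direction held for the ends only. From first to last, the 5 parts had 3.823, 3.849, 3.856, 3.748 and 3.655 per kb in LLC-NR. In LLC-R they had 4.464, 4.519, 4.522, 4.538 and 4.414 per kb. H3K27me3 was lowest near the TSS, at 3.13 per kb (LLC-NR) and 4.03 per kb (LLC-R). The exon to intron ratio of H3K4me3 was lower under 5 kb than farther away, at 1.12 against 1.18 over 50 kb in LLC-NR and 1.10 against 1.21 in LLC-R.

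Long genes that most cells express and long genes known for neurons were compared by named genes. The first list has 14 genes with 234 exons, such as Birc6, an inhibitor of apoptosis protein, Prkdc, the catalytic subunit of DNA-dependent protein kinase, and Utrn, the gene of utrophin. The second has 19 genes with 344 exons, such as Csmd1, Cntnap2 and Dscam, which encode cell surface proteins of neurons. H3K36me3 was 4.87 per kb in exons of the first and 3.12 in exons of the second in LLC-NR, while LLC-R had 5.03 against 4.24. The medians over genes were 4.89 and 3.13 in LLC-NR, beside 3.96 over the 2895 genes with at least 5 such exons, and 4.94 and 4.40 in LLC-R, beside 4.66. H3K27me3 went the other way, with 2.67 against 3.84 per kb in LLC-NR, while LLC-R had 4.57 against 4.80. For both marks the LLC-R library holds more peaks, and the part of this in differences between the lines was not tested. Among single genes, Dscam had 1.98 per kb for H3K36me3 and 5.08 for H3K27me3 in LLC-NR, and Prkdc had 5.24 and 1.63. In LLC-R Dscam had 3.39 and 5.08, and Prkdc had 5.06 and 5.06. Ctnna2, which encodes a neuronal catenin, had 1.28 and 1.70 in LLC-NR, low in both marks. Erbb4, a receptor tyrosine kinase, had 4.85 for H3K36me3 in both lines, so not every gene of the second list was low. The exon to intron ratio was above 1 in both lists in all 8 libraries, from 1.17 to 1.33 in the first and from 1.13 to 1.41 in the second.

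The list of VEGF ligands and receptors, which also holds Tek, the angiopoietin receptor Tie2, had 53 such exons in 8 of 10 genes, Vegfb and Pgf having none. Tek contributed 9 of them. They held 4.58 (LLC-NR) and 5.08 (LLC-R) midpoints of H3K36me3 per kb and 4.21 and 5.20 of H3K27me3, the latter beside 3.36 and 4.30 in all exons. H3K4me3 was 3.47 and 2.60 per kb, beside 3.03 and 3.04 in all exons. In the 14 exons of Flt1, H3K27me3 had 5 midpoints in LLC-NR, or 2.92 per kb, and 11 in LLC-R, or 6.41 per kb. Its intron windows had 3.71 and 4.14 per kb. Kdr (3 exons) and Vegfa (1 exon) were also higher in LLC-R, Vegfc (3 exons) was lower, and Flt4, Nrp2 and Tek had equal values in both lines. In the 10 exons of Nrp1, a co-receptor of VEGF, H3K36me3 was 5.64 and 6.26 and H3K27me3 was 5.64 in both lines. The genes with regulated exons had 66 such exons in 10 genes, with H3K36me3 of 4.70 and 4.80 per kb. Fn1, with 14 of them, had 5.55 and 5.12. Of the 5 genes tested by ChIP-qPCR in the study, Mmp9, a matrix metalloproteinase, had no such exon, and Smad3, Ptk2, Nfkb1 and Mapk9 had 26, with H3K36me3 of 3.98 per kb in each line. With so few exons the counting intervals are wide, as shown by 0.555 to 2.23 for the ratio of H3K4me3 in LLC-NR over these 26 exons, around a value of 1.17.

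Exons of genes that mark host cells were few. The endothelial genes Pecam1, Cdh5, Kdr, Tek and Vwf, of which Kdr and Tek were also on the list of VEGF ligands and receptors, had 33, with 3.12 and 4.27 per kb for H3K36me3 in LLC-NR and LLC-R. The leukocyte genes Ptprc, Itgam, Csf1r and Lyz2 had 17, with 5.12 and 5.91. The fibroblast genes Col1a2, Pdgfra and Dcn had 11, with 4.60 and 5.18. Genes of lung epithelium, the tissue in which the carcinoma arose and no host cell of a subcutaneous graft, were looked at as well, and Scgb1a1, Epcam and Cdh1 had 5 exons, with 4.44 and 3.33. Over all exons the values were 3.77 and 4.49. The share of host cells in these libraries was not tested.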

How the data were processed

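ChIP-seq peaks of 4 histone marks in LLC-NR and LLC-R isografts were used, with 1 library per line and mark. The authors aligned reads to mm9 with Bowtie 0.12.7 (version from the submitters' processing notes), allowed up to 2 mismatches, retained the reads with a unique position and ran GeneTrack on each library, whose settings are not given in the sources used here. The deposited columns used are start and end positions, with no count, height or strand. All peaks have the same width, and none overlaps another of its library. Whether positions count from 0 or 1 is not given in the sources used here, so a position may be off by 1 bp.

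Gene models were from GENCODE vM1 and sequence from NCBIM37, the assembly of mm9. Of 21410 protein_coding genes, each was given its transcript of longest span. Of 157251 internal exons 100128 were of 100 to 300 bp, 40613 of these had introns of 1 kb or more, and 85 with the coordinates of another were left out. Midpoints were summed over exons and windows. Intervals are exact binomial intervals (95%), counting error only. Windows of exon length were cut from the introns for shares and G+C bins, where a bin needed 100 windows. Unique sequence means 32-mers found once on either strand. Distances between the lines were taken where each had 1 midpoint in a region, and alternatively to the nearest midpoint. Sums and ratios were checked on simulated data. No test was made, since no group has replicates.

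Named exons were, in the genes tested by ChIP-qPCR, the VEGF ligands and receptors (with Tek) and the genes with regulated exons, the exon of each gene nearest in length to a peak, and sequences were taken in list order outside chromosome 18. The exons, gene lists and marker lists were chosen with earlier results of these data known. Zones beside splice sites, G+C bins in unique sequence and the spread over 8 libraries were added after the data had been seen. Python 3.11.15, NumPy 2.4.6, pandas 2.3.3, SciPy 1.17.1 and Matplotlib 3.10.9 were used.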

Additional observations from a re-analysis of the deposited data

How the results depend on the processing

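The exon to intron ratio was recomputed in 9 ways for each of 8 libraries. All 72 values were above 1, and 30 were inside the counting interval of the value reported. No interval was computed for the recomputed values. Those near 1 cannot be told from it, such as 1.013 for H3K9ac in LLC-NR with unique sequence and G+C weighting. In the order H3K4me3, H3K9ac, H3K27me3 and H3K36me3, LLC-NR before LLC-R in each, the share of bases covered by peaks in place of midpoints gave 1.124, 1.118, 1.046, 1.111, 1.124, 1.08, 1.074 and 1.074. Weighting to the G+C content of exons gave 1.116, 1.031, 1.043, 1.075, 1.076, 1.049, 1.107 and 1.056. Unique sequence together with this weighting gave 1.094, 1.051, 1.013, 1.043, 1.055, 1.036, 1.074 and 1.04. Unique sequence alone moved the ratio beyond counting error to 1.156 and 1.188 for H3K4me3, 1.064 and 1.135 for H3K9ac, and 1.092 and 1.108 for H3K36me3. Intron windows from 800 to 1300 bp gave 1.2 and 1.186 for H3K4me3, 1.178 for H3K9ac in LLC-R and 1.146 for H3K36me3 in LLC-NR. Using 1 exon per gene gave, in LLC-R, 1.133 for H3K4me3, 1.143 for H3K9ac, 1.103 for H3K27me3 and 1.108 for H3K36me3, and 1.103 for H3K36me3 in LLC-NR. Exons of 130 to 170 bp gave, in LLC-NR, 1.107 for H3K9ac, 1.191 for H3K27me3 and 1.149 for H3K36me3. Leaving out exons with another annotated exon in their windows, or within 5 kb of a TSS, kept every ratio within counting error.

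The ratio of LLC-R over LLC-NR moved for H3K4me3 to 0.924 with the G+C weighting and to 1.027 in unique sequence. For H3K9ac it moved from 1.07 to 1.031 with the weighting and 1.03 with both, and for H3K36me3 to 0.954 and 0.969. For H3K27me3 it went from 0.958 to 0.975 with the weighting and 0.982 with both, within counting error. H3K36me3 in exons over 50 kb against under 5 kb from the TSS was 1.07 times as high in both lines. By position along the transcript, the last of 5 equal parts of the span was at 0.956 (LLC-NR) and 0.989 (LLC-R) times the first. This reversed direction held for the ends only, with the highest density in a part between them, and the cause was not tested. Midpoints of the lines within 10 bp were less frequent in exons than in windows for all 4 marks where each line had 1 midpoint, but by the nearest midpoint the exon minus window difference was 0.39, -0.11, -0.04 and 0.67 points. No paired analysis was possible because the result comes from no test and there is 1 library per line and mark.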
